A study of Mus musculus with 12 samples.

Results

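Meningeal fibroblasts build the membranes that wrap the brain, and 38 genes that they are known to use were followed library by library in RNA of the mouse hippocampus. The genes were chosen by name as transporters, junction proteins, transcription factors, proteoglycans, matrix proteins and secreted proteins of these cells. Earlier results of these data were known when they were chosen. Each of the 38 has 1 row in the deposited table of 29454 genes. The question addressed by the series is what signalling back from CX3CL1, a chemokine anchored in the neuronal membrane, does to neurogenesis.

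RNA depleted of ribosomal RNA was sequenced in 12 libraries from littermates of a cross on a C57 background. The 3 WT libraries carry no transgene. The 3 CAMK libraries carry CaMKIIα-tTA, in which a promoter active mainly in forebrain excitatory neurons drives the tetracycline transactivator. The 6 CX3CL1-ct libraries carry the same driver together with Tg-CX3CL1-ct, which encodes the C-terminal domain of CX3CL1, so that no library carries Tg-CX3CL1-ct without the driver. The pups were taken at P4 by their labels and at P0 by the design text of the series. Sex, litter and batch are not labelled, nor whether libraries come from separate animals, so the p-values reflect spread among libraries that may be technical. Levels are in FPKM (fragment counts corrected for transcript length and library size), as deposited.

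The fibroblasts of the meninges lie in the dura, the arachnoid and the pia, and the pia also lines the fissure of the hippocampus. They lay down the basement membrane on the brain surface, and the cells of the arachnoid barrier join tightly and carry transporters that move organic anions, amino acids and neurotransmitters between blood, cerebrospinal fluid and brain. Forkhead factors, Foxc1 foremost, are needed for the meninges to form. In bulk RNA, more cells of a type and more RNA per cell cannot be told apart.

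Several features of the libraries bear on every result. The markers of hippocampal neurons, such as Prox1 and Zbtb20, were present in all 12, with a summed level of 325 to 679 FPKM. The estimated depth was 11000000 to 15800000 fragments per library. CX3CL1-ct 1, 2 and 3 were more alike than any other pairs of one group: their log ratios spread by 1.07 to 1.41 times the estimated counting noise, against 1.47 to 3.999 times in the other pairs. They are kept as 3 libraries, and counts are also given with their mean taken as 1 library. Xist, the RNA that coats the inactive X chromosome of female cells, was under 1 FPKM in CX3CL1-ct 1 to 4 and CAMK 1, between 6.38 and 8.49 in WT 1 and CX3CL1-ct 6, and between 65.5 and 113 in the other 5 libraries.

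By median rank the 38 genes were lowest in WT and highest in 4 of the CX3CL1-ct libraries, but their sums overlapped between the groups. Their summed level was 160 to 195 FPKM in WT, 188 to 207 in CAMK and 193 to 341 in CX3CL1-ct. Without Zic1 the sums were 133 to 187, 159 to 194 and 179 to 328 FPKM. CX3CL1-ct 1 to 3 lay at 289 to 295 and CX3CL1-ct 4 at 341, whereas CX3CL1-ct 5 and 6, at 218 and 193, were at or near the level of CAMK. CX3CL1-ct 4 was the highest library for 25 of the 38 genes, and WT 2 was the lowest for 20. Ranked over the 12 libraries, a gene's median place was 1 to 3 in the WT libraries, 4 to 6 in CAMK, 5 and 6 in CX3CL1-ct 6 and 5, and 9 to 12 in CX3CL1-ct 1 to 4. The 4 CX3CL1-ct libraries with the highest members were thus the 4 of that group with Xist under 1 FPKM. Summed over the 8 transport, junction and membrane genes the level was 19.0, 8.95 and 12.4 FPKM in WT, 30.6, 20.0 and 24.9 in CAMK, and 27.2 to 61.4 with the highest again in CX3CL1-ct 4.

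**Figure D1:**
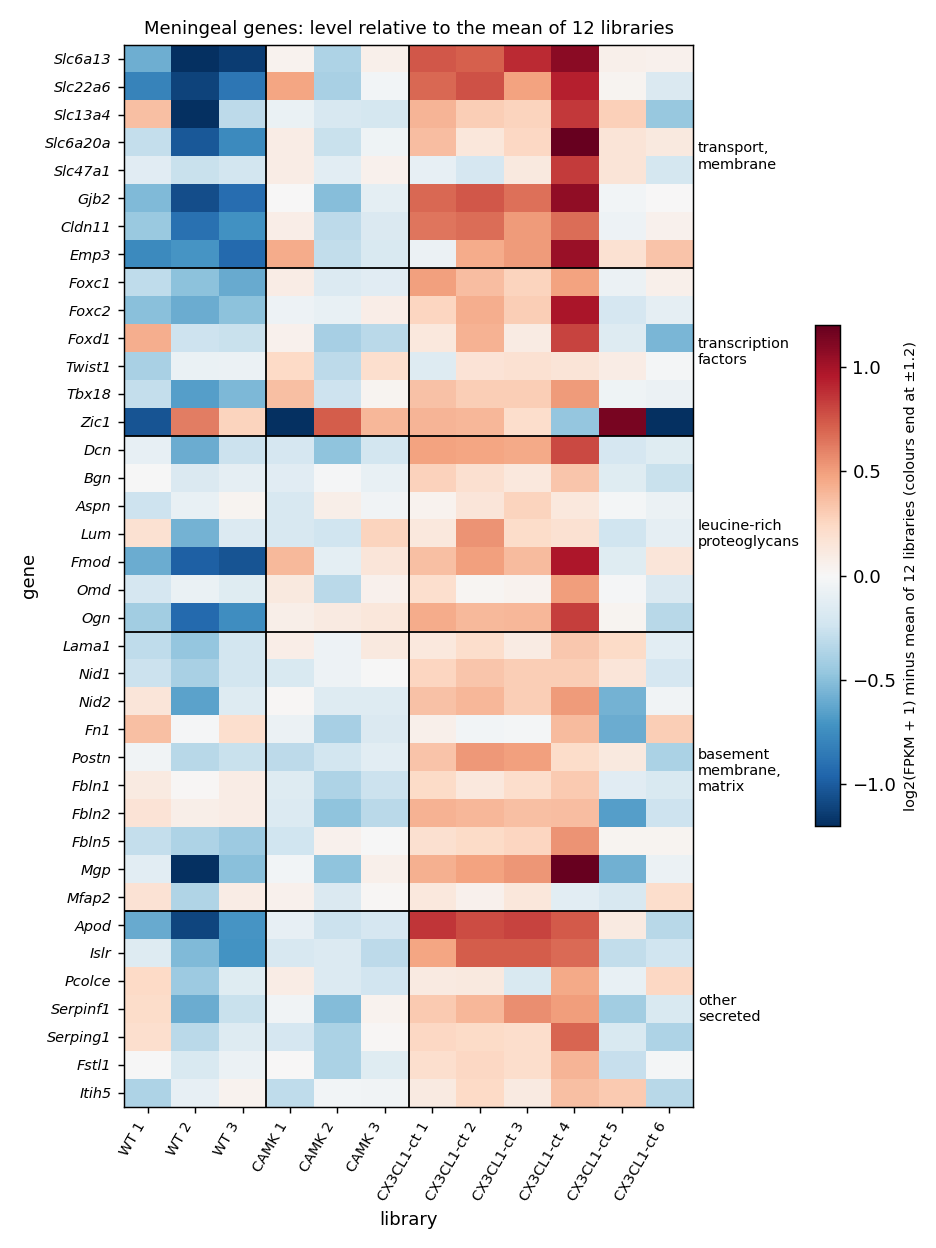
Level of each of the 38 genes (rows, by role) in each of the 12 libraries (columns), as log2(FPKM + 1) minus the gene's mean over the libraries, with colour from low to high. The columns CX3CL1-ct 1 to 4 stand highest for most rows and the WT columns lowest, while CX3CL1-ct 5 and 6 resemble CAMK.

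Promoter sequences are shown for 4 of the genes that rose in CX3CL1-ct against WT. They stand for a transporter, a gap junction protein, a membrane protein and a secreted lipid carrier. Each runs from 250 bases before the transcription start to 50 after it, 5′ to 3′ on the gene's strand, as RefSeq gives it for GRCm38.p6. Capitals mark a TATA box (TATAAA) or GC box (GGGCGG) on either strand. For Slc6a13 and Emp3 RefSeq also gives other starts, whose windows are not shown and hold neither box.
Slc6a13 (chr6:121300038-121300337, plus strand): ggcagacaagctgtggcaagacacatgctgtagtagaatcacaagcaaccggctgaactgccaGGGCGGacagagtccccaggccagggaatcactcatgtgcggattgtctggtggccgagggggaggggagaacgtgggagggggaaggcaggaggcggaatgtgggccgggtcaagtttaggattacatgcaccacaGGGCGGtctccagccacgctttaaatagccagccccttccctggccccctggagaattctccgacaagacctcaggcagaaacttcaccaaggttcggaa
Gjb2 (chr14:57104653-57104952, minus strand): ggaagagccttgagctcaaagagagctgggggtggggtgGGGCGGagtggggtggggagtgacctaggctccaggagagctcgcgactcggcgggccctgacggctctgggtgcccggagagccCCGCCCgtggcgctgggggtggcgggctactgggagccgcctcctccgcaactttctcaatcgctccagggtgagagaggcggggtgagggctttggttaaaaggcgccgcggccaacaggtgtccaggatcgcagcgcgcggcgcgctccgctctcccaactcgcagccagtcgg
Emp3 (chr7:45921377-45921676, minus strand): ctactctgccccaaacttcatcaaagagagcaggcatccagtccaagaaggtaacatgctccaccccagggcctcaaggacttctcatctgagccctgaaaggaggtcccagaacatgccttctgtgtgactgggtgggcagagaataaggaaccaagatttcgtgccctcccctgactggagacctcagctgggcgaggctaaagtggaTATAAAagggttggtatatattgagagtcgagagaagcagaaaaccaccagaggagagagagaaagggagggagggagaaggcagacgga
Apod (chr16:31314759-31315058, minus strand): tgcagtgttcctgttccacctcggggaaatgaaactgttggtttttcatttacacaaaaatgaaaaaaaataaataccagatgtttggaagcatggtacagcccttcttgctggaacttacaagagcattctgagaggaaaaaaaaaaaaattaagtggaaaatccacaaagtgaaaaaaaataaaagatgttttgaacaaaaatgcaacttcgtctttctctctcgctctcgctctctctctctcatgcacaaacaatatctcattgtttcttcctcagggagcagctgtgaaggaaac
The share of G and C was 59% for Slc6a13, 70% for Gjb2, 52.67% for Emp3 and 37.33% for Apod, against a median of 52.67% over all 32851 windows of this length. Windows were found for 29 of the 38 genes. These have 36 windows, of which 18 held a GC box, against 35.66% of all windows, and 5 a TATA box (in Aspn, Emp3, Ogn, Postn and Twist1), against 13.62%. The forkhead letters GTAAACA (in 3.65% of all windows) and the T-box letters AGGTGTGA (in 1.28%) were in none of the 29, and the E-box CATATG (in 3.91%) was in those of Aspn and Pcolce, all on either strand. No motif overlapped a different one, but matches of the same motif overlapped in Ogn (TATA box) and Bgn (GC box). These matches describe letters, not binding sites.

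Against WT, the libraries with CX3CL1-ct held more RNA of 8 of these genes. Of 33 members that reached 1 FPKM in at least 3 libraries, 8 rose and 0 fell at an adjusted p under 0.05 (limma on log2(FPKM + 1), adjusted over 16503 genes). Over all genes tested, 0.2% were called higher and 0.254% lower. The members were chosen with earlier results of these data known. Set beside these shares, the count of 8 thus describes the list and is no independent test. The 8 are Slc6a13, Slc22a6, Gjb2, Cldn11, Emp3, Foxc1, Fmod and Apod, of which 2 are transporters, 2 are junction proteins and 1, Emp3, is another membrane protein. An unadjusted p under 0.05 was found for 18 of the 33, all higher, against 8.8% of all genes. With CX3CL1-ct 1 to 3 averaged into 1 library, 0 of the 33 were called (limma) and 0.0121% of all genes were called higher. Then 16 had an unadjusted p under 0.05, all higher, against 8.59% of all genes in either direction (12.3% without averaging). The log2 differences of the 8 then ran from 0.68 to 1.60. With Xist as a covariate 6 were called, Emp3 and Apod no longer among them, as were 0.667% of all genes. Upper quartile scaling of the libraries moved the split over all genes from 33 higher and 42 lower to 15 higher and 52 lower, and left 6 members higher.

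Slc6a13, the GABA and taurine transporter of leptomeningeal cells (chr6:121300227-121337733), had the largest difference. Its level was 3.58, 1.31 and 2.11 FPKM in WT, 6.09, 4.33 and 6.14 in CAMK, and 6.13 at the lowest, 10.4 at the median and 13.6 at the highest in CX3CL1-ct. All CX3CL1-ct libraries were above all WT libraries, and CX3CL1-ct 5 and 6 sat at the CAMK level. It rose by 1.69 ± 0.26 (SE) on the log2(FPKM + 1) scale against WT (adjusted p = 0.0156; 0.124 with libraries 1 to 3 averaged). Slc22a6, an organic anion transporter (chr19:8618039-8628299), was at 0.994, 0.605 and 0.897 FPKM in WT, at 3.82, 1.64 and 2.39 in CAMK, and at 2.08 to 5.64 with a median of 4.22 in CX3CL1-ct. No WT library reached 1 FPKM and every other library passed it. Its difference from WT was 1.38 ± 0.25 (adjusted p = 0.0408; 0.222 averaged).

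Gjb2 encodes connexin 26, which forms gap junctions between meningeal cells (chr14:57098600-57104702). It was at 1.55, 0.753 and 0.952 FPKM in WT, at 2.70, 1.58 and 2.39 in CAMK, and at 2.58 to 6.68 with a median of 4.87 in CX3CL1-ct. The difference from WT was 1.36 ± 0.24 (adjusted p = 0.0349; 0.211 averaged). Cldn11, the claudin of the arachnoid barrier's tight junctions (chr3:31149920-31164324), was at 3.19, 2.07 and 2.46 FPKM in WT, at 5.05, 3.60 and 4.08 in CAMK, and at 4.47 to 8.09 with a median of 7.52 in CX3CL1-ct. For both junction genes WT was lowest without overlap and CX3CL1-ct 1 to 4 were above every CAMK library. Cldn11 differed from WT by 1.10 ± 0.18 (adjusted p = 0.0249; 0.173 averaged). Emp3, a small membrane protein (chr7:45918023-45921404), was at 1.59, 1.69 and 1.31 FPKM in WT, at 4.99, 2.58 and 2.88 in CAMK, and at 3.19 to 8.02 with a median of 4.78 in CX3CL1-ct. Its difference from WT was 1.21 ± 0.22 (adjusted p = 0.0389; 0.107 averaged).

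Of the other transport genes, Slc6a20a, which carries proline, was at 3.04, 1.44 and 1.90 FPKM in WT, at 4.27, 3.11 and 3.77 in CAMK and at 4.36 to 10.9 with a median of 4.68 in CX3CL1-ct. It was above WT without overlap and did not pass the test (1.07 ± 0.24, adjusted p = 0.0909), and 10.9 belongs to CX3CL1-ct 4 alone. Its exons overlap those of Gm17120, Gm17200 and Ccr9 on the other strand, and whether counting used strand is not given in the sources used here. The deposited locus of Slc6a20a covers 8 genes, so its value is less certain. Slc13a4, a sulfate transporter, was at 4.76, 0.948 and 2.62 FPKM in WT, at 3.26, 2.93 and 2.87 in CAMK and at 2.28 to 7.08 in CX3CL1-ct, with overlap between all groups (0.66, adjusted p = 0.410).

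**Figure D2:**
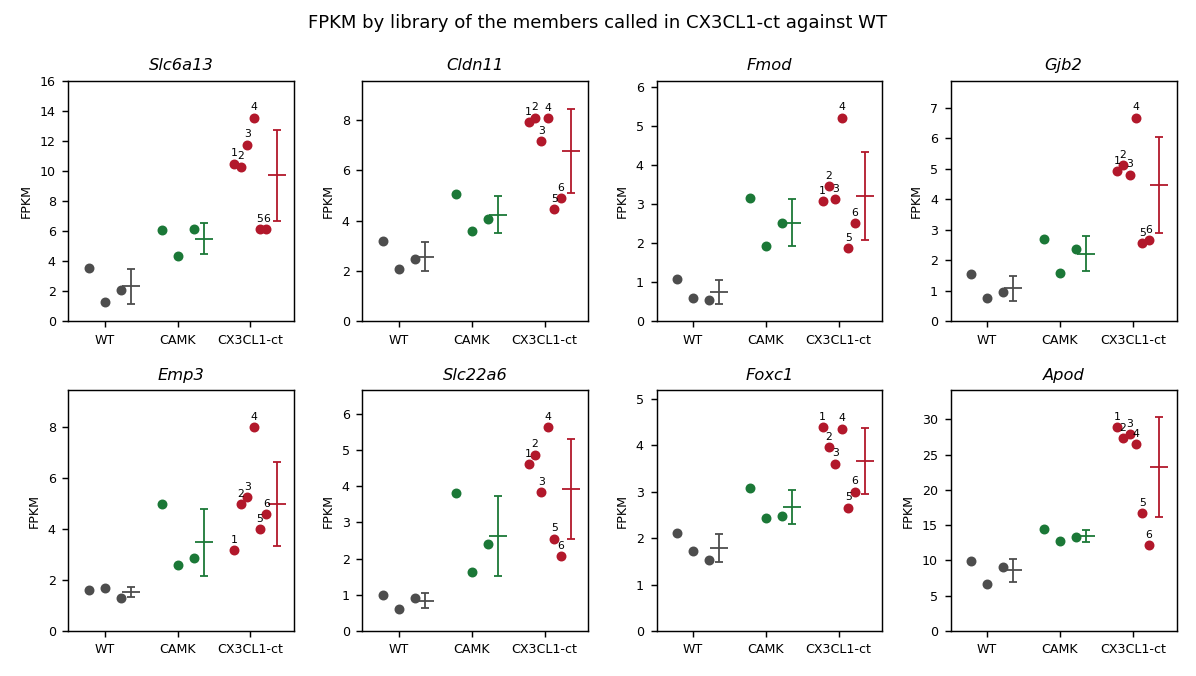
FPKM of the 8 genes called higher in CX3CL1-ct than in WT, 1 panel each, with a point for each library by group, a line at the mean and a bar of 1 SD. In every panel the 3 WT points lie below all 9 others.

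Among transcription factors, Foxc1 rose against WT. It is a forkhead factor that the developing meninges need (chr13:31806633-31812476), and it was at 2.10, 1.73 and 1.53 FPKM in WT, at 3.08, 2.43 and 2.49 in CAMK and at 2.66 to 4.40 with a median of 3.79 in CX3CL1-ct. The difference from WT was 0.73 ± 0.13 (adjusted p = 0.042; 0.222 averaged). Tbx18, a T-box factor of mural and meningeal cells, was at 1.65, 1.04 and 1.23 FPKM in WT, at 3.15, 1.72 and 2.31 in CAMK and at 2.08 to 3.60 with a median of 2.96 in CX3CL1-ct. WT was again lowest without overlap, but the difference missed the threshold (0.72 ± 0.16, adjusted p = 0.0909). Foxd1, a forkhead factor, overlapped between the groups (0.15, adjusted p = 0.855). Zic1, a zinc finger factor of the midline and meninges, followed another pattern. It was at 7.97, 27.0 and 21.1 FPKM in WT, at 6.71, 29.3 and 23.1 in CAMK and at 5.92 to 39.3 with a median of 21.7 in CX3CL1-ct. Its lowest libraries were CX3CL1-ct 6, CAMK 1 and WT 1, and its highest was CX3CL1-ct 5. Its group means were 18.7 ± 9.74 (SD, n = 3), 19.7 ± 11.7 (n = 3) and 20.7 ± 11.4 (n = 6) FPKM, and CX3CL1-ct differed from WT by 0.10 (adjusted p = 0.959). Zic1 overlaps Zic4 on the other strand.

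Small leucine-rich proteoglycans bind collagen fibrils, and Fmod was the one of 5 tested that rose against WT. Fmod, fibromodulin (chr1:134037254-134048277), was at 1.10, 0.610 and 0.552 FPKM in WT, at 3.14, 1.92 and 2.52 in CAMK, and at 1.87 to 5.21 with a median of 3.10 in CX3CL1-ct. Here the CAMK libraries lay within the CX3CL1-ct range, and the difference of CX3CL1-ct from WT was 1.24 ± 0.21 (adjusted p = 0.0267; 0.174 averaged). Ogn, osteoglycin, was at 3.17, 1.92 and 2.32 FPKM in WT, at 4.83, 4.98 and 5.11 in CAMK and at 3.40 to 8.86 with a median of 6.31 in CX3CL1-ct. WT did not overlap the others, and the difference missed the threshold (0.99 ± 0.20, adjusted p = 0.0659). Dcn, decorin, was the most abundant of the group. It was at 15.1, 10.4 and 13.4 FPKM in WT, at 14.0, 11.3 and 13.7 in CAMK, and at 22.6 to 28.8 in CX3CL1-ct 1 to 4 but at 14.0 and 14.5 in CX3CL1-ct 5 and 6. This gave 0.63 ± 0.21 against WT (adjusted p = 0.244). Bgn, biglycan, was at 7.91, 6.92 and 7.29 FPKM in WT, at 7.14, 7.81 and 7.38 in CAMK and at 6.43 to 10.3 with a median of 8.95 in CX3CL1-ct (0.18, adjusted p = 0.577). Lum, lumican, was at 1.09 to 2.504, 1.62 to 2.72 and 1.61 to 3.47 FPKM (0.30, adjusted p = 0.555), and both genes overlapped between the groups.

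None of the 10 matrix genes passed the test against WT, although 3 of them had WT below every other library. Nid1, which links laminin and collagen in basement membranes, was at 9.17, 8.27 and 9.41 FPKM in WT, at 9.67, 10.6 and 11.1 in CAMK and at 9.58 to 14.4 with a median of 13.7 in CX3CL1-ct (0.48 ± 0.11, adjusted p = 0.0909). Lama1, a laminin chain of the pial basement membrane, was at 1.43 to 1.88 FPKM in WT, 2.23 to 2.64 in CAMK and 2.07 to 3.20 in CX3CL1-ct (0.47 ± 0.10, adjusted p = 0.0853). Fbln5, an elastic fibre protein, was at 0.406 to 0.562, 0.616 to 0.980 and 0.944 to 1.76 FPKM (0.58 ± 0.13, adjusted p = 0.0874). In these 3 genes CAMK and CX3CL1-ct overlapped.

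Fn1, fibronectin, the most abundant matrix member, was at 19.9, 15.1 and 17.8 FPKM in WT, at 14.6, 11.4 and 13.5 in CAMK and at 9.80 to 20.3 with a median of 15.6 in CX3CL1-ct (-0.17 against WT, adjusted p = 0.740). Mfap2, a microfibril protein, was at 10.5, 6.96 and 9.85 FPKM in WT, at 9.56, 8.03 and 9.28 in CAMK and at 7.95 to 10.8 with a median of 9.83 in CX3CL1-ct (0.07, adjusted p = 0.863). Both overlapped WT, as did the fibulins Fbln1 and Fbln2, whose differences from WT were 0.02 and -0.0022 (adjusted p = 0.951 and 0.997). Mgp, matrix Gla protein, was at 1.65 to 5.36 FPKM in WT and 3.67 to 21.2 in CX3CL1-ct (1.09, adjusted p = 0.307). Postn, periostin, and Nid2, a nidogen, differed by 0.43 and 0.38 (adjusted p = 0.338 and 0.522). Exons of Fn1, Nid1 and Nid2 overlap a gene on the other strand.

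Apod, apolipoprotein D, a carrier of lipids secreted by meningeal cells (chr16:31296192-31314808), was the only one of 7 other secreted proteins called. Its level was 9.87, 6.70 and 9.12 FPKM in WT, 14.4, 12.8 and 13.3 in CAMK, and 26.5 to 28.9 in CX3CL1-ct 1 to 4, with 16.7 and 12.1 in CX3CL1-ct 5 and 6. The WT libraries were lowest, and CX3CL1-ct 6 lay below all CAMK libraries. Its difference from WT was 1.30 ± 0.24 (adjusted p = 0.042; 0.240 averaged). Fstl1, a follistatin-like glycoprotein, was at 21.7, 19.0 and 20.6 FPKM in WT, at 21.8, 16.5 and 19.5 in CAMK and at 17.8 to 29.1 with a median of 25.3 in CX3CL1-ct (0.22, adjusted p = 0.530). Serpinf1, the serpin PEDF, was at 10.5, 5.52 and 7.22 FPKM in WT, at 8.58, 5.87 and 9.14 in CAMK and at 6.39 to 13.5 with a median of 11.7 in CX3CL1-ct (0.41, adjusted p = 0.513). In Fstl1, Serpinf1 and Islr, CX3CL1-ct 1 to 4 were above every WT library and CX3CL1-ct 5 and 6 were not. Islr, a secreted protein whose exons overlap Islr2 on the same strand, differed by 0.81 (adjusted p = 0.188). Itih5, a hyaluronan-binding inhibitor chain, Serping1, the inhibitor of complement C1, and Pcolce, which helps to process procollagen, differed by 0.28, 0.23 and 0.22 (adjusted p = 0.473, 0.679 and 0.600) and overlapped WT.

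Seen by role, the differences of CX3CL1-ct from WT were largest in the class of transport, junction and membrane genes. The median difference by role was 1.21 for the 7 transport, junction and membrane genes, which is the value of Emp3, 0.63 for the 5 proteoglycans, 0.43 for the 4 factors, 0.41 for the 10 matrix genes and 0.28 for the 7 secreted proteins, against 0.04 over all genes tested. Of the 33 members 31 were above WT on average, as were 62.7% of all genes, and 14 lay above WT without overlap, against 4.67% of all genes. The 14 include Fbln5, which passed the filter through CX3CL1-ct alone. With no filter on low values, 36 of 38 members were above WT on average, as were 56.3% of all genes. None of the 33 lay below WT without overlap, as 1.38% of all genes did.

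CAMK against WT sets the driver alone beside no transgene. Of the 7 transport, junction and membrane genes tested, 6 lay higher in CAMK without overlap, Slc13a4 being the other. No member passed the test in the fit without a block by replicate number. None of 33 was called by limma, against 0.0848% of all genes called higher and 0.273% lower, and an unadjusted p under 0.05 was found for 12 members that were higher, against 6.6% of all genes, and 1 that was lower, against 5.79%. In 14 of the 33 every CAMK library was above every WT library, as in 9.22% of all genes, and these included Slc6a13, Fmod, Ogn and Cldn11. Of the matrix genes that lay lower, Fn1 was at 11.4 to 14.6 FPKM in CAMK against 15.1 to 19.9 in WT, Fbln1 at 5.52 to 6.60 against 7.55 to 8.13, and Fbln2 at 4.005 to 5.26 against 6.37 to 6.86. Over all genes 8.8% lay lower without overlap, so that 3 of 33 is near the share over all genes. The differences were largest for Slc6a13 and Fmod at 1.01 each (adjusted p = 0.19 and 0.103) and for Fn1, Fbln1 and Fbln2 at -0.39, -0.34 and -0.43 (adjusted p = 0.481, 0.314 and 0.541). Of the 33 members 25 were above WT on average, as were 50.5% of all genes. The median was 0.20 for the 33, with 0.63 for transport, junction and membrane genes and 0.06 for matrix genes.

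The labels state no pairing, but same-numbered CAMK and WT libraries deviated together weakly (correlations 0.1003 to 0.2364). Libraries of different number were not compared in this way. Xist was lowest in number 1 of both groups (6.38 FPKM in WT 1, 0.169 in CAMK 1). What the number stands for was not tested. With replicate number as a block, 7 members were higher and 3 lower. Those higher were Slc6a13, Slc22a6, Slc6a20a, Cldn11, Fmod, Ogn and Apod, at adjusted p between 0.0227 and 0.0446 (limma), and those lower were Fn1, Fbln1 and Fbln2, at 0.0383 to 0.0397. In that fit 1.87% of all genes were called higher and 1.1% lower. Of 46 other genes of meningeal fibroblasts, described below, that fit called 3 higher and 3 lower. It also called markers of other cells: Zbtb20 and Fibcd1, of hippocampal neurons, were lower (-0.82 and -0.76, adjusted p = 0.00213 and 0.0294), and Vtn, of mural cells, and Cacna1g, of the thalamus, were higher (0.59 and 0.44, adjusted p = 0.0483 and 0.0232). Their part in the members' differences was not tested. With Xist as a covariate, Fmod was called higher (adjusted p = 0.0222), as were 0.545% of all genes. CAMK against WT and CX3CL1-ct against WT share the WT libraries, and WT lay below all 9 other libraries in 15 of the 38 genes (14 of those tested, against 2.71% of all genes tested). In none of those tested did WT lie above all 9, as it did in 1.1% of all genes.

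**Figure D3:**
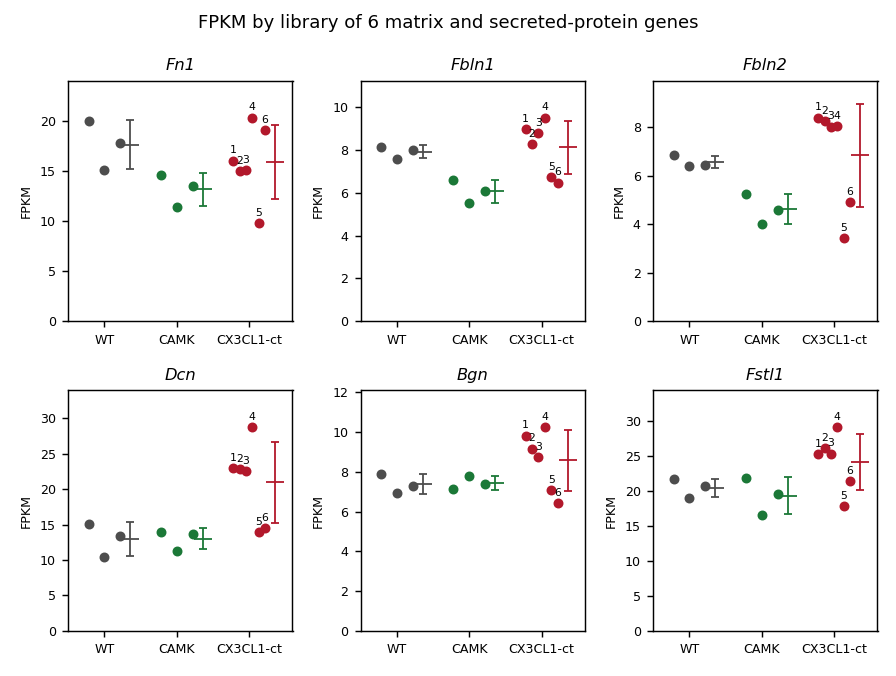
FPKM of Fn1, Fbln1, Fbln2, Dcn, Bgn and Fstl1 (chosen after their values were seen) by library and group, with a line at the mean and a bar of 1 SD. The CAMK points of Fn1, Fbln1 and Fbln2 lie below the WT points, and the CX3CL1-ct points of Dcn split into 4 at 22.6 to 28.8 and 2 at 14.0 to 14.5.

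CX3CL1-ct against CAMK sets the transgene beside the driver alone. Every tested member was higher on average with the transgene, and no member passed the test. It shares its libraries with both comparisons against WT, so their values stand side by side only. None of 33 was called by limma, against 0.0121% of genes called higher and 0.0485% lower, while 11 had an unadjusted p under 0.05, all higher, as 5.33% of all genes did. All 33 differences were positive, as were 63.2% of those over all genes, with a median of 0.34 against 0.04 for all genes. With no filter on low values all 38 were positive, as were 59.2% of those over all genes. Slc6a20a, at 4.36 to 10.9 FPKM, was the only member in which every CX3CL1-ct library lay above every CAMK library, at 3.11 to 4.27, as did 2.78% of all genes, and none lay below all CAMK libraries, as did 0.527%. The largest differences were those of Gjb2 (0.73), Slc6a13 (0.68), Apod (0.68) and Dcn (0.61), each with an adjusted p of 0.725. CX3CL1-ct 1 to 4 were above every CAMK library in 30 to 34 of the 38 members, CX3CL1-ct 5 in 11 and CX3CL1-ct 6 in 5. With libraries 1 to 3 averaged, 0 members were called (0.00606% of all genes were called higher) and the median was 0.28. In that fit 4 members had an unadjusted p under 0.05, against 3.36% of all genes in either direction (6.37% without averaging). With Xist as a covariate the median was 0.20. Fbln1, at 6.46 to 9.48 FPKM against 5.52 to 6.60 in CAMK, differed by 0.36 ± 0.11 (adjusted p = 0.725).

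**Figure D4:**
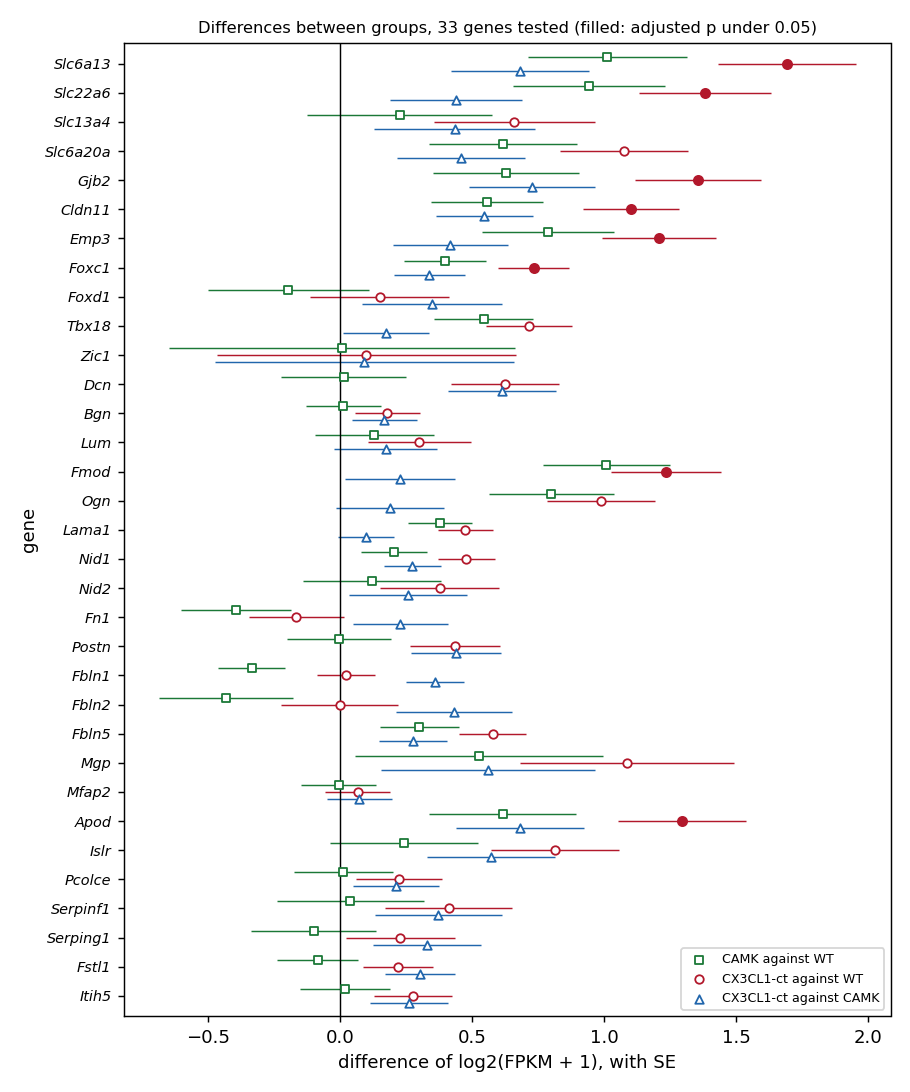
Difference on the log2(FPKM + 1) scale for the 33 tested genes, with SE bars, in the 3 comparisons. CX3CL1-ct against WT holds the largest values, up to 1.69 for Slc6a13, and the CX3CL1-ct against CAMK values are all above 0.

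The remaining 5 members did not reach 1 FPKM in 3 libraries and were not tested. Foxc2, a forkhead factor, was at 0.104, 0.0352 and 0.112 FPKM in WT, at 0.494, 0.466 and 0.649 in CAMK and at 0.360 to 2.07 with a median of 0.890 in CX3CL1-ct, so WT was lowest without overlap. The deposited locus of Foxc2 covers 110 genes, and its value is therefore uncertain. Slc47a1, an exporter of organic cations, was at 0.253, 0.146 and 0.184 FPKM in WT, at 0.463, 0.264 and 0.423 in CAMK and at 0.185 to 1.46 with a median of 0.392 in CX3CL1-ct. Twist1, a basic helix-loop-helix factor, was at 0, 0.236 and 0.243 FPKM in WT, at 0.542, 0.0504 and 0.506 in CAMK and at 0.170 to 0.481 with a median of 0.424 in CX3CL1-ct. Twist1 overlapped between all groups. For Slc47a1 every CAMK library was above every WT library, and CX3CL1-ct overlapped both. Aspn, asporin, was at 0.417, 0.584 and 0.718 FPKM in WT, at 0.471, 0.774 and 0.631 in CAMK and at 0.606 to 1.02 with a median of 0.782 in CX3CL1-ct. Omd, osteomodulin, was at 0.161, 0.262 and 0.202 FPKM in WT, at 0.446, 0.0647 and 0.380 in CAMK and at 0.178 to 0.882 with a median of 0.364 in CX3CL1-ct. These proteoglycans overlapped between the groups too, and with Ogn they share 1 deposited locus on chromosome 13.

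Among 48 other genes of meningeal fibroblasts, 46 were tested, and 38 of these were higher in CX3CL1-ct than in WT on average, as were 62.7% of all genes. Their median difference was 0.33, against 0.04 over all genes. Limma called 4 higher and 1 lower, against 0.2% and 0.254% of all genes. Without overlap 17 lay higher and 2 lower, against 4.67% and 1.38% of all genes. Ptgds, prostaglandin D synthase, was at 31.9, 14.7 and 19.2 FPKM in WT, at 138, 58.4 and 88.1 in CAMK, and at 125 to 539 in CX3CL1-ct. It rose by 3.25 against WT (adjusted p = 0.00338, and 0.0386 with libraries 1 to 3 averaged). S100a6, a calcium-binding protein, fell: it was at 21.6 to 22.1 FPKM in WT, 8.64 to 10.3 in CAMK and 8.69 to 12.98 in CX3CL1-ct (-0.87 against WT, adjusted p = 0.00432). It fell against WT in CAMK as well (-1.09, adjusted p = 0.00265). Lgals1, named after its values were seen, was the other gene lower without overlap. Its level was 22.2 to 32.1 FPKM in WT, 11.2 to 12.2 in CAMK and 9.97 to 20.3 in CX3CL1-ct. It was not called in this fit, but was called lower with Xist as a covariate (-1.08 against WT, adjusted p = 0.0191, limma). Aldh1a2, which makes retinoic acid, Lox, which crosslinks collagen, and Col1a2, a collagen chain named after its values were seen, also rose (1.41, 0.66 and 1.06, adjusted p = 0.0164, 0.0195 and 0.042), but with libraries 1 to 3 averaged none of these 3 passed (adjusted p = 0.119, 0.0974 and 0.243).

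Markers of other cells near the meninges gave no calls in CX3CL1-ct against WT (limma, 0 of 14 endothelial, 11 mural, 13 choroid plexus, 6 border macrophage and 12 hippocampal neuron genes). An unadjusted p under 0.05 was found for 3, 3, 2, 5 and 3 of these, against 12.3% of all genes in either direction. The endothelial and mural genes among them were higher and the choroid plexus and neuron genes lower. Of the macrophage genes 4 were higher and 1 lower. The medians of the lists, in the same order, were 0.19, 0.09, -0.57, 0.59 and -0.07, against 0.04 over all genes. The summed endothelial level was 87.5 to 116 FPKM in WT, 99.8 to 118 in CAMK and 99.6 to 135 in CX3CL1-ct, and the mural sum was 80.4 to 89.9, 92.4 to 98.7 and 84.0 to 134. The macrophage sum was 14.1 to 18.2, 13.7 to 15.4 and 12.3 to 24.6 FPKM. The choroid plexus sum, to which Ttr gives the most, was 327 to 2398, 118 to 940 and 173 to 661 FPKM, and overlapped in all groups. CX3CL1-ct 1 to 4, the libraries with the highest members, were also above all other libraries in the endothelial, mural and macrophage sums, with 20.4 to 24.6 FPKM in the last. No marker of these 5 lists was at 0 in a library. Of 9 skull bone and cartilage markers in the table, 2 (Acan and Col2a1) reached 1 FPKM in 3 libraries. The sum of the 9 was 4.27 to 4.56 FPKM in WT, 3.40 to 3.86 in CAMK and 3.06 to 6.09 in CX3CL1-ct. It was highest in CX3CL1-ct 1, 2 and 3, at 5.30, 6.09 and 5.42, and was 4.04 in CX3CL1-ct 4. Striatum markers, listed after the values were seen, summed to 31.2 to 229 FPKM in WT, 38.9 to 49.4 in CAMK and 32.8 to 165 in CX3CL1-ct, and thalamus markers, listed at the same time, to 48.7 to 61.9, 61.0 to 119 and 60.3 to 125. CX3CL1-ct 5, highest for Zic1, was also high for both. The part of these cells and regions in the members' differences was not tested.

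**Figure D5:**
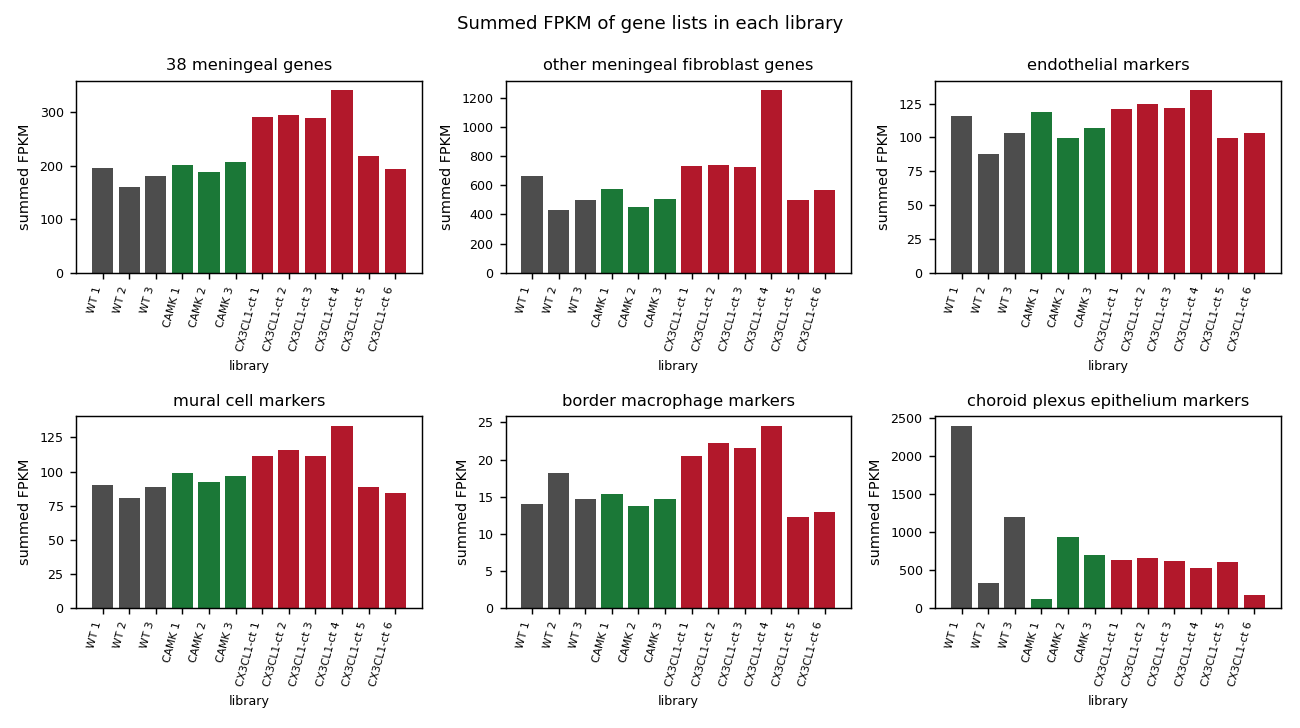
Summed FPKM (bars, 1 for each library) of the 38 genes, of other meningeal fibroblast genes and of 4 marker lists, coloured by group. CX3CL1-ct 1 to 4 are highest in every panel but that of the choroid plexus, where WT spreads from 327 to 2398 FPKM.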

How the data were processed

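Hippocampal RNA of 12 mouse libraries (3 WT, 3 CAMK, 6 CX3CL1-ct) was read as the FPKM values that the authors deposited. Per the submitters' processing notes, TopHat, Bowtie, Cufflinks, Cuffdiff and genome build mm10 were used, with no versions; how FPKM were scaled and whether strand was used are not given in the sources used here. The log2(FPKM + 1) scale used here makes changes of low genes look smaller. A gene was tested if 3 or more libraries reached 1 FPKM (16503 of 29454). limma, with 3 group means fitted to all 12 libraries and eBayes with trend, gave two-sided tests, with Benjamini-Hochberg adjustment over every tested gene and a threshold of 0.05. The steps were tested on simulated data. The members and lists were chosen with earlier results of these data known. Named are all 38 members, with library values for those that passed, the 3 most abundant of each role and those not tested, and up to 4 genes of each other list by the smallest p against WT. Same-numbered CAMK and WT libraries deviated together weakly (correlations 0.2364, 0.1627 and 0.1003), so replicate number was also used as a block. Numbers above 3 occur only in CX3CL1-ct, so with this block only CX3CL1-ct 1 to 3 are compared with the other groups. The labels give no pairing, and libraries of different number were not compared in this way. Depth was estimated from single-fragment values, assuming fragments of 180 nt. Gene positions are from GENCODE M21.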

Additional observations from a re-analysis of the deposited data

Results flagged for a closer look

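In 3 of 38 members, 1 library stood apart from the other 5 of CX3CL1-ct, and each time it was CX3CL1-ct 4. Slc6a20a was at 10.8844 FPKM there, with the next at 5.3709. Slc47a1 was at 1.4645, with the next at 0.5313, and Mgp was at 21.2211, with the next at 9.0422. Chance flags about 1 group in 20 by this measure, and CX3CL1-ct 4 was also the highest library for 25 of the 38 genes. What sets that library apart was not tested.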

How the results depend on the processing

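The sign of the 8 genes called higher in CX3CL1-ct than in WT held in all alternatives run, and no called value reversed. The count of 8 did not: it was 2 with a filter at 5 FPKM (17 members tested), 0 in a fit of only the groups compared, 0 with CX3CL1-ct 1 to 3 averaged and 0 with CX3CL1-ct 2 and 3 left out (the last 2 chosen after seeing the data). Leaving out 1 library gave 0 to 11, with 0 without WT 2 or WT 3, 4 without WT 1, 2 without CAMK 3, 2, 1 and 1 without CX3CL1-ct 1, 2 and 3, and 11 without CX3CL1-ct 6. Calls over all genes moved too. With all libraries 33 genes were called higher, against 21, 1 and 1 without WT 1, 2 and 3 and 12 without CAMK 3. Without CX3CL1-ct 1, 2 and 3 these were 7, 5 and 7, and without CX3CL1-ct 6 they were 62. Why these counts moved was not tested. Blocked by replicate number, the counts were 15 for CX3CL1-ct against WT, 6 against CAMK (Gjb2, Cldn11, Dcn, Fbln1, Fbln2 and Apod) and 10 for CAMK against WT. Numbers above 3 occur only in CX3CL1-ct, so in this block the CX3CL1-ct differences rest on CX3CL1-ct 1 to 3, the most alike libraries. They leave out CX3CL1-ct 4, 5 and 6. The labels give no pairing. Same-numbered CX3CL1-ct libraries correlated with those of WT and CAMK at -0.1301 to 0.1139. Between CAMK and WT the correlations were 0.1003 to 0.2364, so the ranges overlap. That block also called markers of other cells in CX3CL1-ct against WT: 2 endothelial, 2 mural and 4 macrophage genes higher and 2 hippocampal neuron genes lower. The Xist covariate gave 1 for CAMK against WT. The median difference stayed within 0.41 to 0.66 for CX3CL1-ct against WT, 0.20 to 0.42 against CAMK and 0.04 to 0.31 for CAMK against WT. Among tested members, 6, 3 and 14 changed sign in some alternative. Over all genes the block gave 364 higher in CX3CL1-ct against WT and 119 against CAMK, and the CX3CL1-ct against WT calls went from 33 higher and 42 lower to 2 and 26 with libraries 1 to 3 averaged. Members under about 1 FPKM rest on few fragments.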

Other observations

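Genes of border-associated macrophages, which live in the meninges and around vessels, differed in direction among themselves. Of 8 listed, 6 were tested, and 4 of these were higher and 2 lower on average in CX3CL1-ct than in WT, with none past the threshold. Over all genes 62.7% were higher, so that 4 of 6 is near the share over all genes. Mrc1, the mannose receptor, was at 2.58, 1.59 and 2.03 FPKM in WT, at 3.72, 3.001 and 3.26 in CAMK and at 3.07 to 5.04 in CX3CL1-ct (0.77 against WT, adjusted p = 0.0595, limma). F13a1, a coagulation factor subunit, was at 0.640 to 0.898 FPKM in WT, 1.49 to 1.61 in CAMK and 1.13 to 2.15 in CX3CL1-ct (0.66, adjusted p = 0.0661). Lyve1, a hyaluronan receptor, was at 0.520 to 0.785, 1.09 to 1.97 and 1.29 to 2.17 (0.72, adjusted p = 0.0757). For Mrc1, F13a1 and Lyve1 WT lay below the other 9 libraries, as in 2.71% of all genes tested. Against CAMK the differences were 0.27, 0.12 and 0.22 (adjusted p = 0.815, 0.933 and 0.853). Stab1, a scavenger receptor, differed from WT by 0.52 (adjusted p = 0.228). Cbr2, a carbonyl reductase, went the other way, at 0.593, 6.24 and 3.93 FPKM in WT, 0.220 to 0.536 in CAMK and 0.384 to 1.54 in CX3CL1-ct (-1.04, adjusted p = 0.280). Pf4, a chemokine, was at 3.82 to 6.35, 2.96 to 4.33 and 2.44 to 6.89 FPKM (-0.10, adjusted p = 0.914). Cbr2 and Pf4 were named after their values were seen. The summed level in CAMK, 13.7 to 15.4 FPKM, was not above that in WT, 14.1 to 18.2.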
